A study of Mus musculus with 6 samples.

Results

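The 6 genes Hes1, Hes5, Hey1, Hey2, Heyl and Nrarp, direct transcriptional outputs of the Notch pathway, were followed in cells sorted from the forebrain of mouse embryos at embryonic day E12.5. They were taken by symbol from a table of 52636 genes and not by a cutoff on their values. The group was chosen with earlier results of these data known. All 6 genes were among the 16869 that passed a filter on low counts. The SmadNes group carried 1 floxed and 1 wild-type copy each of Smad1 and Smad5 (Smad1wt/fl;Smad5wt/fl) together with Nestin:Cre+/0, in which Cre is driven by the Nestin promoter of neural progenitors. Control littermates had those same floxed copies but Nestin:Cre0/0, so both groups were floxed and heterozygous, and only SmadNes had Cre. Each group had 3 pools of cells, named SF3, SF4 and SF5_6 in both, with CD1, 129/ola and C57BL6 as their mixed background, and the labels do not give the number of embryos in a pool. Cells were sorted for the surface protein Prominin1 and are described by the labels as cortical radial glia. The question put to these genes is whether Notch output transcripts differ once Cre acts on floxed Smad1 and Smad5, transcription factors that carry bone morphogenetic protein (BMP) signals.

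Notch is a receptor that is cut when a ligand on a neighbouring cell binds it. Its intracellular part then enters the nucleus, joins the DNA-binding protein RBPJ and a Mastermind co-activator, and switches on a small set of genes. In the embryonic cortex these include Hes1 and Hes5, which repress proneural genes and keep radial glia dividing. Hey1, Hey2 and Heyl encode related basic helix-loop-helix repressors, which also act in blood vessels and heart, and Nrarp encodes a small ankyrin-repeat protein that dampens Notch signalling in a feedback loop.

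The libraries held between 32997423 and 40744672 expected counts, estimates of read pairs per gene. Libraries of the same pool name deviated together from their genotype means, with correlations across genes of 0.493 to 0.724, so the names are treated as pairs. The main genotype fit does not use these pairs, and another fit takes them as a replicate block. Of 10 radial glia markers all had counts in every library, and their summed level lay between 1954 and 2438 CPM (counts scaled to a common library total) in SmadNes and between 1841 and 2358 CPM in controls. Of 10 neuron markers all had counts in every library too, with sums of 4062 to 4816 CPM in SmadNes and 4070 to 5479 CPM in controls, so neuronal transcripts were abundant in the sorted cells. Both targeted genes had more counts in the libraries labelled SmadNes in all 3 pairs (log2 differences: Smad5 0.42, Smad1 0.23). In the fit that takes the pool name as a replicate block, Smad5 was called as higher in SmadNes (edgeR adjusted p 0.00757, against 0.965 without the block), and Smad1 was not (0.257). A whole-gene count spans exons inside and outside the floxed part and does not check the deletion, so every direction below rests on the labels.

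Nrarp, Hes5 and Hey1 were the most abundant of the 6 transcripts once length was taken into account, and Heyl was close to the bottom. Levels were set per length by dividing CPM by the kilobases of exon of each gene (the union of its exons in GENCODE M21, GRCm38). On that scale Nrarp averaged 30.9 ± 4.41 CPM per kb in SmadNes and 30.1 ± 0.536 CPM per kb in controls (SD, n = 3 each, as for all means here). Hes5 averaged 24.8 ± 1.85 CPM per kb in SmadNes and 24.8 ± 4.67 CPM per kb in controls. Hey1 averaged 24.8 ± 2.39 CPM per kb in SmadNes and 24.0 ± 0.406 CPM per kb in controls. These 3 genes lay above 88.4% or more of the 16829 tested genes with a known length, and their ranges over the 6 libraries overlapped. Within a library, Nrarp was above Hey1 in 6 of 6 and above Hes5 in 5 of 6, while Hey1 was above Hes5 in 4 of 6. Hes1 came next, at 15.6 ± 1.67 CPM per kb in SmadNes and 14.1 ± 2.39 CPM per kb in controls, above 79.4% of genes. Hey2 stood at 3.04 ± 0.675 CPM per kb in SmadNes and 2.46 ± 0.477 CPM per kb in controls, above 41.9% of genes. Heyl stood at 0.447 ± 0.246 CPM per kb in SmadNes and 0.427 ± 0.18 CPM per kb in controls, above 16.5% of genes. The ranges of Hey1, Hes1, Hey2 and Heyl did not overlap from one to the next, with steps of 1.64-fold, 5.4-fold and 6.29-fold between neighbours. Nrarp made up 27.6% to 33.6% of the summed length-scaled level of the 6 genes, Hes5 23.5% to 29.0%, Hey1 23.0% to 26.9%, Hes1 13.3% to 17.3%, Hey2 2.16% to 3.43% and Heyl 0.163% to 0.695%. Exon unions can exceed the length of the isoforms in use, so such levels are approximate.

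**Figure D1:**
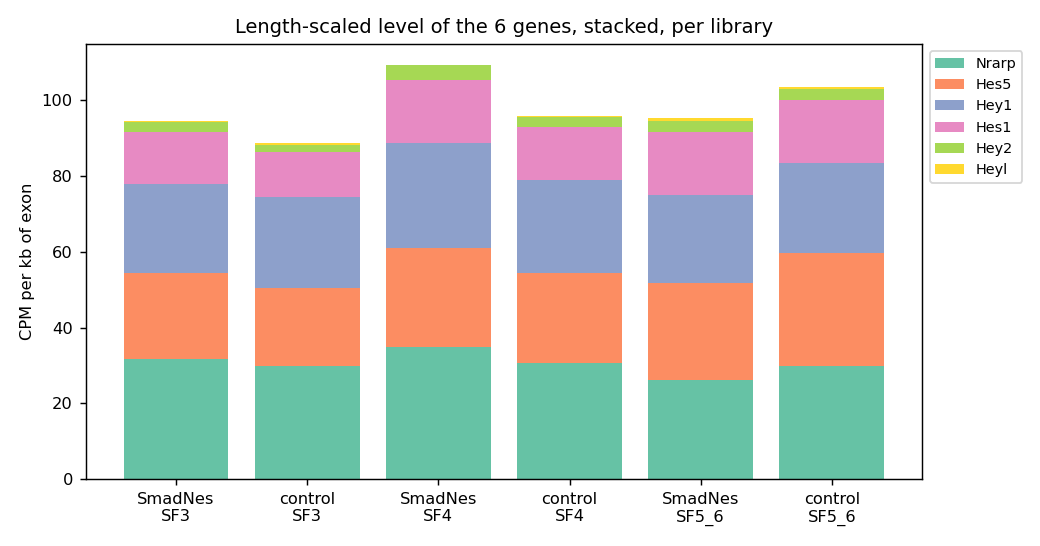
Stacked bars give the length-scaled level (CPM per kb of exon) of the 6 genes in each library, with SmadNes left of the control of the same pool name. Nrarp, Hes5, Hey1 and Hes1 fill most of every bar, and the summed level lies between 88.5 and 109.2 CPM per kb.

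On GRCm38 the genes lie on 5 chromosomes. Hes1 (ENSMUSG00000022528.7) is at chr16:30064384-30067796 and Hes5 (ENSMUSG00000048001.7) at chr4:154960923-154962371. Hey1 (ENSMUSG00000040289.8) is at chr3:8663359-8667256, Hey2 (ENSMUSG00000019789.9) at chr10:30832359-30842801, Heyl (ENSMUSG00000032744.4) at chr4:123233556-123249875 and Nrarp (ENSMUSG00000078202.3) at chr2:25180758-25183339. Hes5 and Nrarp are overlapped on the other strand by the noncoding genes Gm20421 and Gm38287. The libraries were stranded, and these antisense genes had 5 to 8 and 19 to 36 counts per library, against 978 to 1388 counts of Hes5 and 2348 to 3195 counts of Nrarp.

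RefSeq promoters (GRCm38.p6) were at hand for 3 of the 6 genes, Hes5, Hey2 and Nrarp, and are shown because RBPJ-type motifs set the first pair apart from Nrarp by sequence alone. The printed window runs from 250 bases before to 20 bases after the RefSeq start, 5′ to 3′ on the strand of the gene. Capitals mark matches to GTGGGAA, the core of an RBPJ site, or to its reverse complement.
Hes5 (chr4:154960673-154960942, plus strand): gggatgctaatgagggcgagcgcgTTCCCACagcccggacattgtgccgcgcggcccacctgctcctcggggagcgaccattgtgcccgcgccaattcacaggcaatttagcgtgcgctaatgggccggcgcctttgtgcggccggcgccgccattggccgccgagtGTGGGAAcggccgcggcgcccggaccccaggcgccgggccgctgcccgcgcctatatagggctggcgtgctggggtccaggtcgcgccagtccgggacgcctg
Hey2 (chr10:30842764-30843033, minus strand): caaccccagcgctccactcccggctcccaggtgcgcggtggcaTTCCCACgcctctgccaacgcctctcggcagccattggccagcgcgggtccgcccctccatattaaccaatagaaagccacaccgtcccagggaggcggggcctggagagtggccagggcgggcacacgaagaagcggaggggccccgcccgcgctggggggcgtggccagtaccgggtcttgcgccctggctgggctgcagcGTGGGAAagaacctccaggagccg
Nrarp (chr2:25180508-25180777, plus strand): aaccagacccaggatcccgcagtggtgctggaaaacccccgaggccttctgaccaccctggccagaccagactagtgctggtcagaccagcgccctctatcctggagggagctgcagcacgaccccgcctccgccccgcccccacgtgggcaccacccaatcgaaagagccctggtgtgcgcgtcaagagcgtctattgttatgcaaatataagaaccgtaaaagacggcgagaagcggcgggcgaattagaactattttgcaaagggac
The motif search covered both strands of the full window of 300 bases. Hes5 and Hey2 each held GTGGGAA at 2 places, 1 per strand, with the first bases at -226 and -83 (Hes5) and at -207 and -4 (Hey2) from the start. Across 32851 RefSeq promoters of that length, 6.38% held the motif at all and 0.1% held it on both strands, a share computed after these matches were seen. Nrarp had neither GTGGGAA nor the shorter TGGGAA contained in it (25.6% of promoters), but had CACNAG, the N-box bound by Hes proteins, at 2 places (42.5% of promoters). GGCGCC, a GC-rich sequence bound by Smad proteins, occurred at 4 places in Hes5 and at 1 in Hey2, against 11.9% of promoters with any match. The windows of Hes5 and Hey2 were GC-rich, at 72.7% and 72.0%, and that of Nrarp stood at 60.0%, while the median of all promoters was 52.7%. A match to a motif is not a measured binding site.

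**Figure D2:**
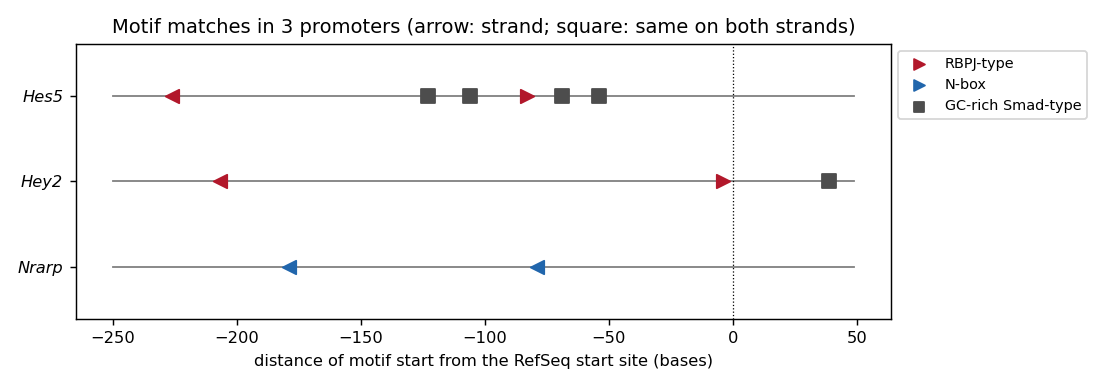
Arrows and squares mark where each motif starts along the promoters of Hes5, Hey2 and Nrarp, with the distance in bases from the RefSeq start on the horizontal axis. Red arrows are GTGGGAA, present on both strands in Hes5 and Hey2. Blue arrows are CACNAG, present in Nrarp, and grey squares are the palindrome GGCGCC.

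None of the 6 genes differed detectably between SmadNes and control cells. The fit behind this left out the pairing by pool name, and it found few changes as small as that of Hey2 when tested on simulated counts. The quasi-likelihood test of edgeR, fitted across all genes, called 0 of 6 at an adjusted p below 0.05, where 0% of all tested genes were called, and SmadNes and control libraries overlapped for all 6 genes (4.77% of all genes had groups that did not overlap). The median log2 difference of the 6 was 0.06, beside -0.00038 over all tested genes. The Benjamini-Hochberg adjusted p of each was 1, none had an unadjusted p below 0.05 (1.05% of all genes did), and DESeq2 and limma-voom also called 0 of the 6. The log2 difference was positive for 5 of 6 genes (all but Hes5, whose sign turned with the scaling, the tool and the block), against 49.8% of all genes.

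The Hes genes, the chief Notch effectors of cortical progenitors, stood close to control levels. Hes1 had 27.9, 34.0 and 33.4 CPM in the SF3, SF4 and SF5_6 pools of SmadNes, against 24.0, 28.3 and 33.7 CPM in those of controls. SmadNes was higher in the SF3 and SF4 pairs (log2 differences of 0.22 and 0.27) and level with the control in SF5_6 (-0.012). The mean was 31.8 ± 3.40 CPM in SmadNes and 28.7 ± 4.88 CPM in controls, a log2 difference of 0.15 (SE 0.14, 95% interval -0.20 to 0.49). Hes5 had 30.9, 35.5 and 34.9 CPM in SmadNes, against 28.3, 32.3 and 40.8 CPM in controls. It was higher in SmadNes in the SF3 and SF4 pairs (0.13 and 0.14) and lower in SF5_6 (-0.22), where the control library was the highest of the 6. Its mean was 33.8 ± 2.52 CPM in SmadNes and 33.8 ± 6.36 CPM in controls, and the 95% interval of its log2 difference ran from -0.34 to 0.34.

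Of the Hey genes, Hey2 had the largest log2 difference between the genotypes. Hey2 had 11.0, 17.2 and 13.7 CPM in the SF3, SF4 and SF5_6 pools of SmadNes, against 8.76, 12.6 and 12.51 CPM in those of controls. SmadNes was higher in all 3 pairs (log2 differences of 0.33, 0.45 and 0.13), the only one of the 6 genes of which that held, and 13.8% of all genes were higher in all 3 pairs. The mean was 14.0 ± 3.10 CPM in SmadNes and 11.3 ± 2.19 CPM in controls, 1.24-fold higher. The log2 difference was 0.31 (SE 0.21, 95% interval -0.21 to 0.82). Hey1 hardly varied, with 77.2, 89.9 and 75.7 CPM in SmadNes, against 77.8, 79.9 and 77.5 CPM in controls. The SF4 library of SmadNes stood above the other 5, which lay within 75.7 to 79.9 CPM. The mean of Hey1 was 80.9 ± 7.79 CPM in SmadNes and 78.4 ± 1.33 CPM in controls (log2 difference 0.04, SE 0.074, 95% interval -0.13 to 0.22). Heyl, a transcript best known from vessel walls, had 98, 30 and 117 counts in SmadNes (2.58, 0.91 and 3.38 CPM), against 77, 50 and 105 counts in controls (2.23, 1.24 and 3.08 CPM). Its pools differed far more than its genotypes, and the interval of its log2 difference of 0.07 ran from -1.21 to 1.36, too wide to show a change of 2-fold. With the pool name as a replicate block the interval was -0.40 to 0.44, which lies inside 2-fold in either direction.

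Nrarp, the feedback inhibitor, had 81.6, 90.3 and 67.8 CPM in the SF3, SF4 and SF5_6 pools of SmadNes, against 76.9, 79.3 and 76.9 CPM in those of controls. The control libraries lay close together, and the SmadNes libraries held both the highest and the lowest value. The mean was 79.9 ± 11.4 CPM in SmadNes and 77.7 ± 1.38 CPM in controls, a log2 difference of 0.04 (SE 0.10, 95% interval -0.21 to 0.29).

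**Figure D3:**
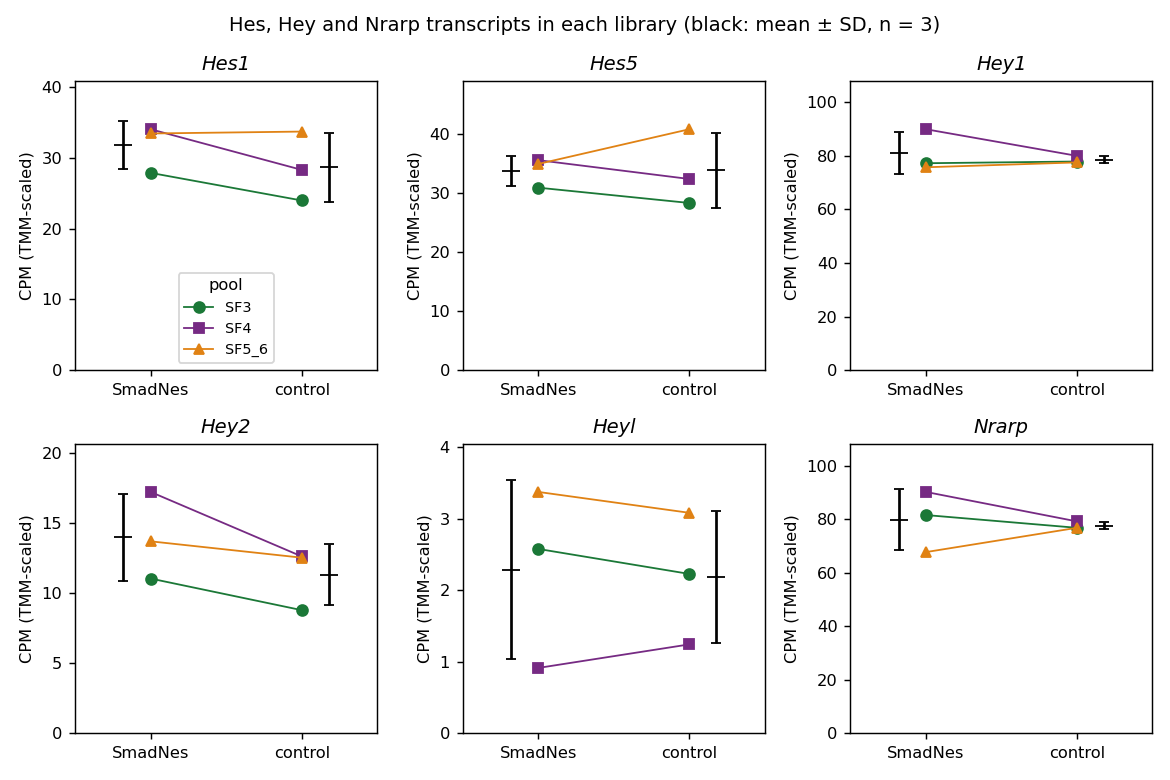
Each panel plots the TMM-scaled CPM of 1 gene, SmadNes on the left and control on the right, with a line joining the libraries of 1 pool name and black marks for the mean ± SD (n = 3). SmadNes and control overlap in every panel, and only Hey2 has all 3 lines falling toward the control.

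When the pool name was entered as a replicate block, the fit still called none of the 6 genes, and it called 4 genes in all (0.0237%), of which Smad5 was 1. Its intervals were narrower. Then 2 genes had an unadjusted p below 0.05, against 0 without the block and against 6.23% of all genes with the block. Hey2 had a log2 difference of 0.30 with a 95% interval of 0.11 to 0.50 (unadjusted p 0.00621, edgeR adjusted p 0.516). Hes1 had a log2 difference of 0.16 with an interval of 0.0071 to 0.31 (unadjusted p 0.0419, edgeR adjusted p 0.778). Neither passed when adjusted over all genes. For Hes5, Hey1, Nrarp and Heyl the intervals with the block included 0 and were bounded at 0.18, 0.15, 0.18 and 0.44 above and at -0.16, -0.068, -0.11 and -0.40 below. Without the SF5_6 pair the blocked log2 difference of Hey2 was 0.39 (edgeR adjusted p 0.0987), the smallest adjusted p of any of the 6 genes under any alternative tried for the genotype comparison.

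**Figure D4:**
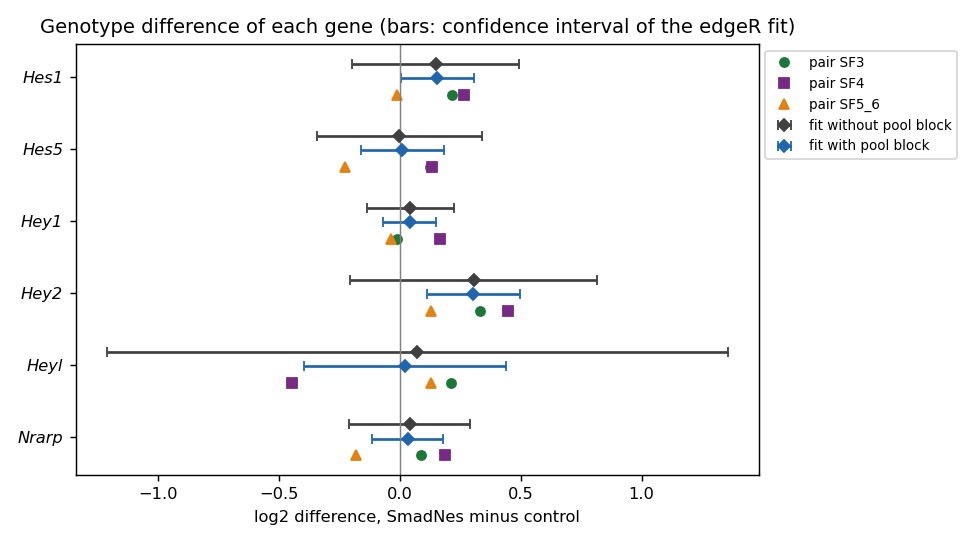
The log2 difference, SmadNes minus control, is plotted for each gene from the fit without the block (dark grey) and with it (blue), with 95% intervals, and coloured symbols give the value within each pair. The blue interval lies above 0 for Hey2 (0.11 to 0.50) and narrowly for Hes1, while the dark grey intervals all include 0.

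The pool names separated these genes more than the genotypes did. An edgeR quasi-likelihood test of the pool name, with genotype as a term, called 4 of 6 genes (Heyl, Hey2, Hes1 and Hes5), while 28.8% of all tested genes were called. On simulated counts this fit made more false calls than its threshold allows, so calls near the threshold are uncertain. The pool name took up between 58.3% and 95.6% of the sum of squares of log2 CPM of each gene over the 6 libraries, beside a median of 70.9% over all genes. Genotype took up 26.3% for Hey2, 17.8% for Hes1 and 6.2% or less for the other 4, beside a median of 5.77%. The pool name has more levels than genotype, so its share is larger on average even where neither has an effect. The 6 genes followed different courses across the pools.

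By pool means Hes1 and Hes5 were lowest in SF3 and highest in SF5_6, although among the SmadNes libraries alone both were slightly higher in SF4 than in SF5_6. Hes1 averaged 33.6 CPM in the SF5_6 pools and 31.2 CPM in SF4, against 25.9 CPM in SF3, with log2 differences from SF3 of 0.38 and 0.26 (edgeR adjusted p 0.0187). Hes5 averaged 37.8 CPM in SF5_6 and 33.9 CPM in SF4, against 29.6 CPM in SF3, with log2 differences of 0.35 and 0.20 (edgeR adjusted p 0.0479). The call for Hes5 lies just inside the threshold. It was lost with limma-voom (adjusted p 0.05), with DESeq2 (0.109) and without any of 4 single libraries, SmadNes SF3 (edgeR adjusted p 0.0567), SmadNes SF4 (0.0672), control SF3 (0.208) or control SF5_6 (0.135). The call for Hes1 was lost with DESeq2 (adjusted p 0.0574), without the genotype term (edgeR adjusted p 0.0526) and without control SF3 (0.106).

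Hey2 was highest in SF4, at a mean of 14.9 CPM, with 13.1 CPM in SF5_6, against 9.89 CPM in SF3 (log2 differences of 0.58 for SF4 and 0.41 for SF5_6, edgeR adjusted p 0.00802). That call was lost without the genotype term (edgeR adjusted p 0.0581) and under no other alternative for the pool test. Hey1 and Nrarp were also highest in SF4, but neither passed. Hey1 averaged 76.6 CPM in SF5_6 and 84.9 CPM in SF4, against 77.5 CPM in SF3 (edgeR adjusted p 0.153). Nrarp averaged 72.3 CPM in SF5_6 and 84.8 CPM in SF4, against 79.2 CPM in SF3 (edgeR adjusted p 0.133). Hey1 passed without control SF4 (edgeR adjusted p 0.0422). Nrarp passed without control SF4 (0.0138), without control SF5_6 (0.00673) and without the filter on low counts (edgeR adjusted p 0.00483).

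Heyl went against the other Hey genes, with its lowest values in SF4. It averaged 3.23 CPM in SF5_6 and 1.08 CPM in SF4, against 2.40 CPM in SF3, a log2 difference of 1.57 between SF5_6 and SF4 (edgeR adjusted p 0.00325). Both SF4 libraries lay below the other 4, and the call held under all 11 alternatives for the pool test.

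**Figure D5:**
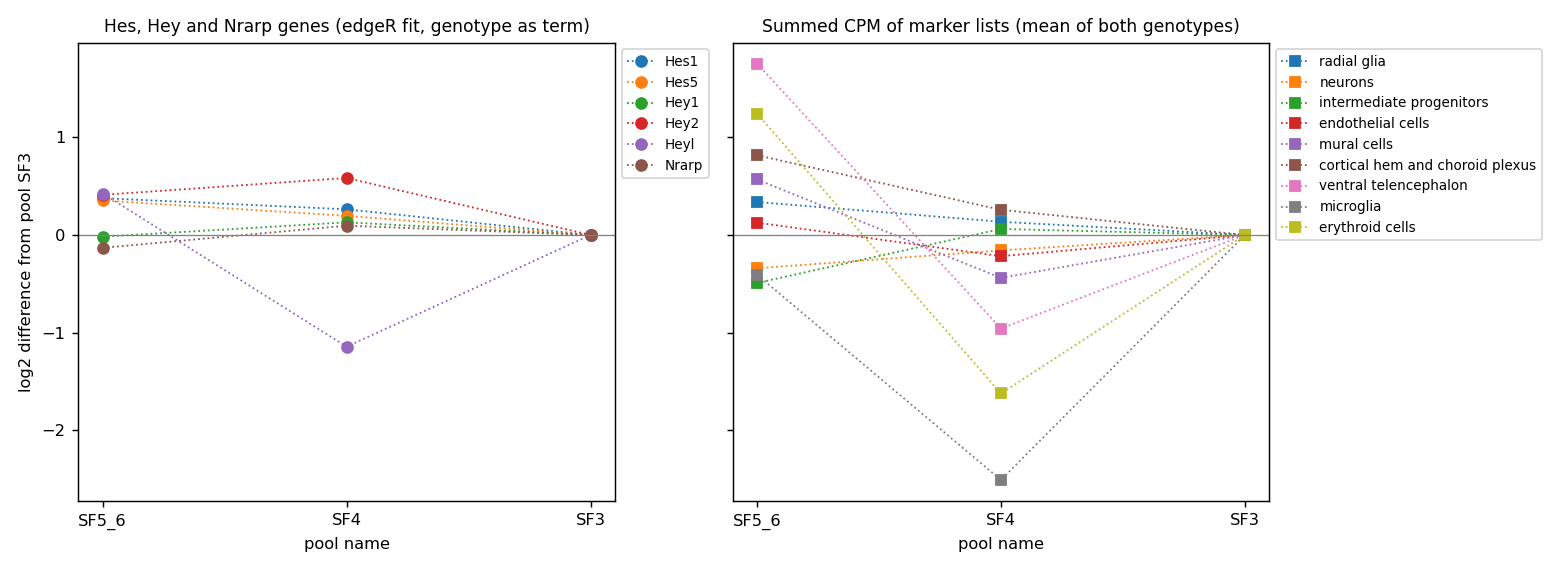
The log2 difference from pool SF3 is plotted for the 6 genes (left, from the edgeR fit) and for the summed CPM of marker lists (right, means of both genotypes), and dotted lines only guide the eye, since pool names have no order. Hes1 and Hes5 lie near the radial glia sum and share its order of pools with the cortical hem and choroid plexus list, and Heyl dips in SF4 as several lists of other cell types do.

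The summed levels of cell type markers also varied with the pool name. The summed level of the 10 radial glia genes averaged 2398 CPM in SF5_6 and 2084 CPM in SF4, against 1897 CPM in SF3, on the log2 scale 0.34 and 0.14 above SF3. The 10 neuron markers ran the other way, at 4066 CPM in SF5_6 and 4614 CPM in SF4, against 5148 CPM in SF3. The 6 markers of intermediate progenitors stood at 1056 CPM in SF5_6 and 1551 CPM in SF4, against 1485 CPM in SF3. In such bulk samples a change in the number of cells of a type and a change in RNA per cell cannot be told apart.

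Set against the radial glia sum, Hes1 and Hes5 varied little between pools and Hey1 and Nrarp varied more. The largest parts of that sum were Vim (824, 745 and 685 CPM in SF5_6, SF4 and SF3) and Nes (525, 454 and 402 CPM). Both had its order of pools, as did Sox2, Prom1 and Hmga2, whereas Pax6, Fabp7, Slc1a3, Sox9 and Glul did not. By level that sum thus rests mainly on Vim and Nes, but its change between pools also includes that of Hmga2, given below. The log2 ratio of Hes1 to that sum ranged over 0.13 between pool means, and that of Hes5 over 0.062, while their log2 levels in the fit ranged over 0.38 and 0.35. The ratio ranged over 0.36 for Hey1 and 0.47 for Nrarp, against log2 ranges of 0.15 and 0.23 for their levels, with both ratios lowest in SF5_6. Hey2 ranged over 0.45 and Heyl over 1.40 on the ratio. Hmga2, a chromatin protein of early progenitors in that list, stood at 194 CPM in SF5_6 and 48.3 CPM in SF4, against 44.6 CPM in SF3. Without it the ratio ranged over 0.13 for Hes1, 0.10 for Hes5, 0.27 for Hey1 and 0.39 for Nrarp, an alternative added after seeing the data. Between genotypes the ratio of Hey2 was higher in SmadNes by 0.25 on the log2 scale, and in 3 of 3 pairs (0.24, 0.42 and 0.08). For Hes5, Hey1, Heyl and Nrarp the mean ratio was lower in SmadNes by 0.089 or less, while against the library total the mean log2 values of Hes5, Hey1 and Nrarp were higher in SmadNes, by 0.012, 0.041 and 0.031.

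Heyl, Hey1 and Hey2 are also made by cells of the vessel wall, and markers of such cells were present at low levels. Of 8 mural cell markers, 7 had counts in every library and Des was at 0 in some, with sums of 14.2 to 36.3 CPM in SmadNes and 18.6 to 31.0 CPM in controls. These sums averaged 33.6 CPM in SF5_6 and 16.7 CPM in SF4, against 22.7 CPM in SF3, the same order as Heyl. Pdgfrb was the largest part of them, at 22.8 CPM in SF5_6 and 8.67 CPM in SF4, against 13.3 CPM in SF3. It was the only tested mural marker called by pool name (edgeR adjusted p 0.00172), and Rgs5, Kcnj8 and Des had other orders. All 10 endothelial markers had counts in every library, with sums of 21.3 to 25.5 CPM in SmadNes and 19.4 to 26.2 CPM in controls, averaging 25.8 CPM in SF5_6 and 20.4 CPM in SF4, against 23.7 CPM in SF3. Kdr made up most of these sums, at 15.5 CPM in SF5_6 and 15.6 CPM in SF4, against 13.8 CPM in SF3. Every other endothelial marker was lowest in SF4, among them Cdh5 (3.06, 1.17 and 3.27 CPM in SF5_6, SF4 and SF3). The 8 microglial markers averaged 61.9 CPM in SF5_6 and 14.4 CPM in SF4, against 82.1 CPM in SF3, and the 8 erythroid markers 867 CPM in SF5_6 and 119 CPM in SF4, against 366 CPM in SF3. The 10 markers of the ventral telencephalon, whose progenitors also carry Hes5, averaged 200.1 CPM in SF5_6 and 30.5 CPM in SF4, against 59.2 CPM in SF3. All 10 markers of cortical hem and choroid plexus had counts in every library, with sums of 394 to 531 CPM in SmadNes and 326 to 738 CPM in controls. These sums averaged 634 CPM in SF5_6 and 431 CPM in SF4, against 360.0 CPM in SF3, the same order as Hes1 and Hes5. Ttr, the largest part of them, did not have that order (155.8, 156.3 and 169.9 CPM in SF5_6, SF4 and SF3). Msx1, lowest in SF4, did not have it either, while the other markers of the list did. The highest library was control SF5_6, as for Hes5, and as for the endothelial, ventral telencephalon and erythroid sums. The part of these cell types in the pool differences of Heyl, Hes1 and Hes5 was not tested.

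The rest of the Notch pathway gave no called gene either. In 7 lists of 64 genes, chosen with earlier results of these data known, 59 were tested and 0 were called between SmadNes and control cells, with or without the block. None had an unadjusted p below 0.05 without the block (1.05% of all genes did), and 6 did with it (6.23% of all genes). By pool name 30 of the 59 were called, or 50.8%, beside 28.8% of all genes. No share among genes of like expression level was computed, so the difference is not read as a trait of the pathway.

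The 4 receptors were all tested and none was called, with a median log2 difference of 0.06 (range 0.03 to 0.10). Notch1, the main receptor of cortical progenitors, stood at 336 ± 34.6 CPM in SmadNes and 322 ± 29.1 CPM in controls. Notch2 stood at 243 ± 20.7 CPM in SmadNes and 235 ± 32.4 CPM in controls. Notch4, a receptor of endothelium, stood at 3.69 ± 0.443 CPM in SmadNes and 3.44 ± 0.286 CPM in controls. Of the 8 ligands none was called (median -0.04, range -0.76 to 0.42). Dll1, the ligand shown by newborn neurons and intermediate progenitors, stood at 235 ± 9.23 CPM in SmadNes and 221 ± 22.5 CPM in controls. Dll3, which blocks Notch within the cell that makes it, stood at 53.2 ± 1.87 CPM in SmadNes and 55.4 ± 3.63 CPM in controls. Dll4, known from sprouting vessels, stood at 5.12 ± 1.04 CPM in SmadNes and 3.82 ± 0.19 CPM in controls, with log2 differences of 0.48, 0.73 and -0.0045 in SF3, SF4 and SF5_6. Dlk1, named after its values were seen, had the lowest log2 difference of the ligands and an unadjusted p below 0.05 with the block. It stood at 16.0 ± 13.1 CPM in SmadNes and 27.1 ± 30.6 CPM in controls (edgeR adjusted p 0.601 with the block).

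Of 19 genes that process or modify Notch and its ligands none was called (median -0.02, range -0.19 to 0.12). Mib1, the ubiquitin ligase that activates the ligands, stood at 375 ± 19.6 CPM in SmadNes and 346 ± 27.9 CPM in controls and was higher in all 3 pairs. Rfng, a sugar transferase acting on Notch, stood at 43.1 ± 3.52 CPM in SmadNes and 46.1 ± 4.66 CPM in controls, lower in all 3 pairs. Aph1a, a subunit of the gamma-secretase that cuts Notch, stood at 63.5 ± 3.95 CPM in SmadNes and 65.8 ± 1.18 CPM in controls. Of 14 genes of the nuclear complex and of turnover none was called (median 0.03, range -0.31 to 0.18). Hdac1, a histone deacetylase of the RBPJ repressor complex, stood at 106 ± 7.59 CPM in SmadNes and 95.0 ± 4.64 CPM in controls, higher in all 3 pairs (edgeR adjusted p 0.397 with the block). Maml2, a Mastermind co-activator, stood at 31.9 ± 2.84 CPM in SmadNes and 28.2 ± 3.09 CPM in controls, also higher in all 3 pairs. Numbl, a relative of the Notch antagonist Numb, stood at 108 ± 21.3 CPM in SmadNes and 123 ± 16.6 CPM in controls, lower in all 3 pairs (edgeR adjusted p 0.397 with the block).

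Downstream of the Hes factors, the 5 tested proneural genes showed no call (median 0.03, range -0.08 to 0.06). Neurog1 stood at 32.0 ± 5.70 CPM in SmadNes and 30.7 ± 2.54 CPM in controls, and Neurod4 at 15.7 ± 3.20 CPM in SmadNes and 16.2 ± 3.72 CPM in controls. Atoh1 had 2 counts or fewer in every library and was not tested. Among 6 genes of the Groucho family, some of which encode co-repressors through which Hes proteins act, none was called (median -0.06, range -0.42 to 0.06). Tle2 stood at 7.14 ± 0.787 CPM in SmadNes and 8.83 ± 2.68 CPM in controls, Tle1 at 119 ± 7.01 CPM in SmadNes and 128 ± 20.6 CPM in controls, and Tle6 at 0.410 ± 0.234 CPM in SmadNes and 0.556 ± 0.154 CPM in controls.

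Of the 7 other genes related to Hes, only Hes6, Bhlhe40 and Bhlhe41 passed the filter. Hes2, Hes3, Hes7 and Helt had at most 13, 4, 9 and 27 counts in any library. None of the tested 3 was called (median -0.01, range -0.13 to 0.16). Hes6, which antagonises Hes1 and promotes neuronal differentiation, stood at 133 ± 14.4 CPM in SmadNes and 134 ± 5.99 CPM in controls. Bhlhe40 stood at 12.8 ± 1.46 CPM in SmadNes and 11.5 ± 1.55 CPM in controls, higher in all 3 pairs. Bhlhe41 stood at 0.691 ± 0.232 CPM in SmadNes and 0.762 ± 0.394 CPM in controls.

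Among themselves 4 of the 6 genes formed pairs by their course over the libraries, while Hey2 and Heyl stood apart. Likeness was measured as the root mean square difference of log2 CPM over the 6 libraries, each gene centred on its own mean. Hey1 and Nrarp were closest, at 0.0713, and Hes1 and Hes5 next, at 0.0813. Hey2 was 0.16 from Hes1, its nearest, and Heyl was 0.672 or more from every other. Of 12863 protein-coding genes averaging 1 CPM or more, the nearest to Hes1 were Podxl (0.0316) and Ncam2 (0.0451), and the nearest to Hes5 were Spint2 (0.0197) and Slit3 (0.0234). Hey1 was nearest to Med9 (0.0103) and Acyp1 (0.0109), and Nrarp to Nkd1 (0.0251) and Dpm3 (0.027). Hey2 was nearest to Prr15 (0.0946) and Cav2 (0.104), and Heyl to Synpo (0.0777) and Rcsd1 (0.0906). These are descriptions of 6 libraries that share pool names and depth, and genes that vary little lie near many others, as the median distance of 0.128 from Hey1 against 0.684 from Heyl shows.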

How the data were processed

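RNA was extracted from cells sorted for Prominin1, and per the labels' protocols stranded mRNA libraries (KAPA kit) were sequenced as paired-end reads of 100 bases, 1 library per pool. Per the labels' protocols the authors used STAR 2.5.3a for mapping (GRCm38) and RSEM 1.3.0 for quantification (GENCODE M15). The deposited values are the authors' expected counts per gene, whole and unscaled. The rounding and the summing of isoforms are not given in the sources used here. The submitters' processing notes also name DESeq2 1.18.

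Counts were tested with edgeR 4.0.16 in R 4.3.3 (quasi-likelihood F test, TMM scaling, filterByExpr, Benjamini-Hochberg over all genes tested) on all 6 libraries, with genotype as the term. A second fit tested the pool name with genotype as a term. A gene was called at an adjusted p below 0.05. CPM are TMM-scaled, SE and 95% intervals come from the edgeR fit, and log2 values for likeness used a prior count of 2. Alternatives were other scalings, no filter, DESeq2 1.42.0, limma-voom 3.58.1, the replicate block and leaving out libraries. The pool names pair the samples: correlations of same-named libraries were 0.493, 0.697 and 0.724, and those of other pairs -0.0582 or lower. Deviations were taken from genotype means, so positive values for same names force negative ones among other pairs, which are no separate evidence. No library was a copy of another, with chi-square per degree of freedom of 11.4 to 47.7 within a genotype. No label says that pools came from separate litters. Without the block, p-values measure only the spread between pools of a genotype, which may be technical. With the block, and in the pool test, they rest on the spread left after pool name and genotype are fitted. That remainder may be technical too. On simulated counts the fits without the block and with it recovered most changes of the larger sizes, the one without the block found few of the smaller sizes, and the fit with the block slightly, and the pool fit clearly, made more false calls than the threshold allows. Trended dispersions and robust fitting, tried on simulated counts alone, were not adopted, and the fits stayed as planned.

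Members and lists were chosen with earlier results of these data known. Named were all 6 genes in every library, up to 3 genes per Notch list with the smallest unadjusted p, and the 2 genes nearest to each member by the likeness measure; 1 gene so chosen is not reported here. Positions and exon lengths came from GENCODE M21 (GRCm38), matched by ID for 52403 genes.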

Additional observations from a re-analysis of the deposited data

How the results depend on the processing

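No alternative called any of the 6 genes between SmadNes and control: the count was 0 under each of 17. Over all genes the count was 0 without a block and 4 with the replicate block, while DESeq2 called 7 (14 with the block) and limma-voom 1 (8 with the block). Leaving out libraries or, with the block, pairs gave 0 to 149 calls, the highest without the SF5_6 pair, 48 without SF4 and 10 without SF3. The cause was not tested. Hes1 and Hey2 kept a positive log2 difference under all 17 alternatives (0.036 to 0.28, and 0.13 to 0.45). Near 0, Hes5 turned positive with the block (0.011), upper-quartile scaling (0.0027), DESeq2 with the block (0.0068) and limma-voom without and with it (0.012 and 0.0060), and ranged from -0.11 to 0.15 over left-out libraries and pairs. Heyl turned negative in DESeq2 with the block (-0.016) and ranged from -0.31 to 0.45 over left-out libraries and pairs (with the block -0.075 without SF3 and -0.058 without SF5_6). In the same way Hey1 ranged from -0.038 to 0.090 and Nrarp from -0.057 to 0.15, each negative without SmadNes SF4 and, with the block, without the SF4 pair (-0.025 and -0.048). The pool test called 3157 genes and 2 of the 6 with DESeq2, 2 of the 6 without the genotype term, and 2 to 6 of the 6 over left-out libraries, which leave 1 residual degree of freedom. Over left-out libraries all-gene calls by pool name ran from 3380 to 5029. Between genotypes, no difference in the ratio to radial glia genes moved by more than its spread with another denominator. Those denominators were the library total and the list without Hmga2. With the library total, however, the differences of Hes5 (from -0.041 to 0.012), Hey1 (from -0.013 to 0.041) and Nrarp (from -0.023 to 0.031) changed sign. The ranges between pools did depend on the denominator. They were 0.13 for Hes1 and 0.062 for Hes5 on the radial glia sum, against 0.38 and 0.35 for their log2 levels. Depth limits Heyl most, at 30 to 117 counts.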
